A study of Homo sapiens with 4 samples.

Results

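Peaks of H3K27me3, histone H3 trimethylated at lysine 27, were examined at a pair of clusters of forkhead (FOX) transcription factor genes: FOXQ1, FOXF2 and FOXC1 at 6p25, and FOXF1, FOXC2 and FOXL1 at 16q24. The members are the peaks of both deposited lists that overlap chr6:1290000-1640000 or chr16:86500000-86640000 of build hg19 by 1 bp or more. They number 31 of 22045 peaks, 18 of 8890 in the DMSO list and 13 of 13155 in the AKBA list. The 16q24 window was chosen by a measured value, since it holds the widest peak of the AKBA list, and the width of that peak is therefore a description and not a finding.

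The cells were HaCaT, an immortalised line of human keratinocytes, kept for 12 hours in medium with AKBA or with its solvent DMSO. AKBA is the usual abbreviation of an acetylated keto-boswellic acid from frankincense resin, which the labels do not spell out, and no source used here gives its dose. Each condition had 1 library made with an antibody against H3K27me3 and 1 library of input DNA, and only the H3K27me3 libraries have a peak list. With 1 library per condition, differences could not be checked over replicates or given a p-value. Sequencing depth is unknown from peak lists, and a stretch outside a list may carry the mark below the authors' threshold. The lists hold no expression values, so the keratinocyte label was not checked against marker genes.

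H3K27me3 is deposited by Polycomb repressive complex 2 and is associated with silent developmental genes, often as broad domains over stretches rich in CpG, a C followed by a G. Forkhead factors bind DNA through a winged-helix domain. Both clusters descend from an ancestral group of linked forkhead genes, so that FOXF1 and FOXF2 are paralogues, as are FOXC1 and FOXC2. FOXF1 is a factor of lung and gut mesenchyme and of lung vessels, and FOXF2 of gut and palate mesenchyme. FOXC1 is best known from the anterior segment of the eye and FOXC2 from lymphatic vessels and their valves. FOXL1 acts in the mesenchyme below the gut epithelium, and FOXQ1 in epithelia and in the hair shaft. Most of these roles lie outside the keratinocyte.

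The RefSeq promoter table, on GRCh38.p14, matched 3 of the 6 members, FOXQ1, FOXF2 and FOXC1, and FOXF1, FOXC2 and FOXL1 were not matched. The sequences are shown because CpG-rich promoters are where this mark is usually found. Each runs 5′ to 3′ on the plus strand from 250 bases before to 50 bases after the start of the gene, with every CG in capitals.
FOXQ1: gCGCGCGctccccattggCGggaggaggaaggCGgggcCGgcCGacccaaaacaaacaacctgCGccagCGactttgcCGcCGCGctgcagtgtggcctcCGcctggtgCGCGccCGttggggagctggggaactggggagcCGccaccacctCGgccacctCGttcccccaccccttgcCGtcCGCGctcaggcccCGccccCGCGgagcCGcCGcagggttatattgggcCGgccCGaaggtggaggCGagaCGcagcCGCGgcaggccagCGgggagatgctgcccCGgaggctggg
FOXF2: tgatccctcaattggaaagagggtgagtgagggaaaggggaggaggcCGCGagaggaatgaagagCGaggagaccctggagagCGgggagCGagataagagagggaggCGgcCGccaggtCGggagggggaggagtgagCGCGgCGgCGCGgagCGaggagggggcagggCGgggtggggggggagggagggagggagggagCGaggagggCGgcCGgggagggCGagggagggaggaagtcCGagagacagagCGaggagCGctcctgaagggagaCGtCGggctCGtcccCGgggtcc
FOXC1: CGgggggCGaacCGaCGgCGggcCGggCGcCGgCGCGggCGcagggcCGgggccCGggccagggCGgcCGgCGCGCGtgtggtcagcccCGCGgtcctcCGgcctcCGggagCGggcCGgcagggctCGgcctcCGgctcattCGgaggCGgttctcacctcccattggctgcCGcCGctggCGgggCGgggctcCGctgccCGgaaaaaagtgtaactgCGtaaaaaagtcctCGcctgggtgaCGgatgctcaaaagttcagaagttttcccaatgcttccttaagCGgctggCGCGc

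The 3 promoters were rich in CG, which reads the same on both strands. FOXC1 held 40 CG in 300 bases, and 7.61% of the 35116 promoters in the table held as many or more. FOXQ1 held 35 (14.1% of promoters with as many) and FOXF2 26 (30.1%), against a median of 14 and with at least 1 CG in 96.0% of promoters. The G and C content was 72.7% for FOXC1, 74.7% for FOXQ1 and 71.0% for FOXF2, against a median of 58.7%. These letters describe the promoters, and no hg19 genome was used here to set them against a peak.

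Along chromosome 6 the gene table of GRCh38.p14 gives the order LOC105374879, FOXQ1, the non-coding FOXF2-DT, LOC124905366, FOXF2, MIR6720, a stretch of non-coding genes and pseudogenes, FOXCUT, FOXC1 and GMDS. Along chromosome 16 it places FENDRR, a long non-coding RNA beside FOXF1, then FOXF1, RPL7AP63, MTHFSD, FLJ30679, FOXC2-AS1, FOXC2, FOXL1 and LINC02189. Because the table and the peaks are of different builds, its positions were not used, and peaks were counted per window and not per gene. As background from outside the files, on what is generally known of hg19, the widest AKBA peak ends in FOXF1, the shared peak farther right in the same window spans FOXC2, and the last DMSO peak lies in FOXL1. On the same background the AKBA peak from 1391298 to 1393830 lies in FOXF2. A DMSO peak of 160 bp lies 705 bp to its left, so FOXF2 is not set apart as marked with AKBA alone. The last peaks of the 6p25 window lie just before FOXC1, and FOXQ1 lies in sequence without a peak in either list. No count given here rests on these placements.

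The 16q24 window was densely marked with and without AKBA. In 140 kb, 21.9 kb (15.7%) lay in DMSO peaks and 28.6 kb (20.4%) in AKBA peaks. The ratio was 1.31, below the median of 1.75 over the 3503 consecutive windows of 140 kb with peaks of both lists. Those windows held a median of 1.23 kb in DMSO peaks, so most were far sparser than 16q24 and were not matched to it. More AKBA than DMSO bases were found in 79.6% of the 5958 windows of that length with any peak, and 16q24 had the same direction. Because 68.6% of the AKBA bases at 16q24 lie in the peak that chose the window, the ratio and its direction are descriptions only.

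The DMSO coverage placed 16q24 near the top of the genome. Of the 5958 consecutive windows, 4 (0.0671%) held as many DMSO bases or more and 13 (0.218%) as many AKBA bases or more. The medians were 0.504 kb in the DMSO list and 1.24 kb in the AKBA list. Consecutive windows start at fixed steps, whereas the FOX window was placed around its peaks, which favours the latter. The widest AKBA peak, which chose the window, makes up 68.6% of its AKBA bases, so the AKBA rank is a description from which nothing is read. It also overlaps 5 of the 9 DMSO peaks, so the DMSO rank is not independent of the choice.

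**Figure D1:**
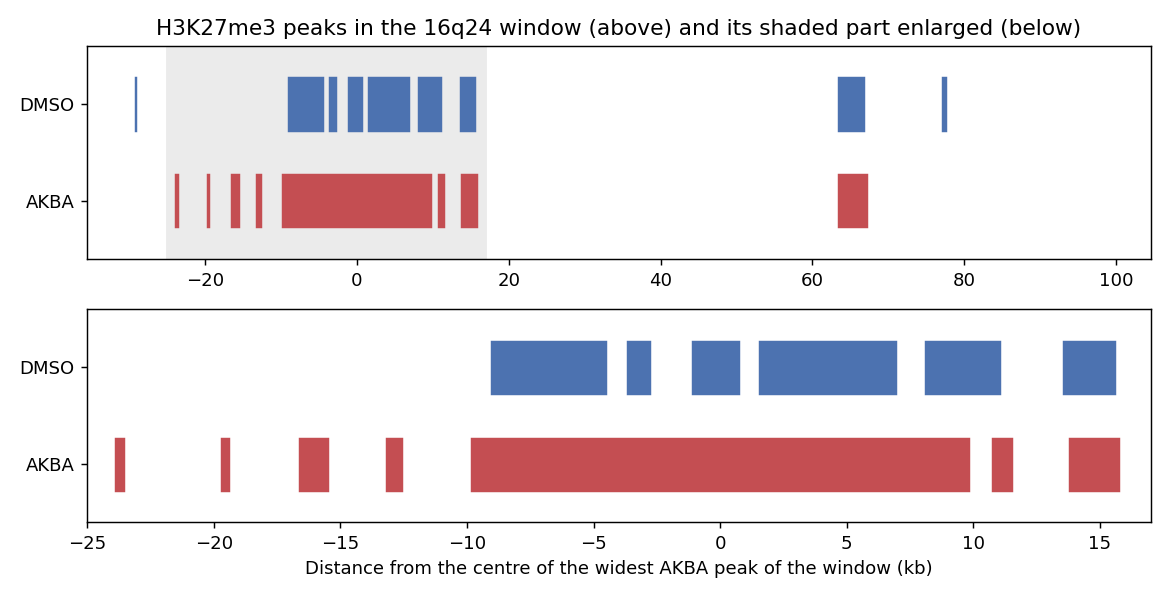
Peaks of the DMSO list (blue) and the AKBA list (red) in the 140 kb window at 16q24, as distance in kb from the centre of the widest AKBA peak. The lower panel enlarges the shaded part, where 1 AKBA peak of 19644 bp faces 5 DMSO peaks, and both lists are empty over 47.6 kb to the right of the block.

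The marked sequence at 16q24 lay in a left block of many peaks and a lone peak to the right, separated by 47599 bp without a peak in either list. The core of the left block, from 86525671 to 86551256, spans 25.6 kb. DMSO peaks covered 69.3% of it in 6 peaks and AKBA peaks 87.7% in 3 peaks. The DMSO list left 5 breaks that add up to 6942 bp, and the AKBA list 2 breaks that add up to 3139 bp. This span starts and ends at edges of AKBA peaks and leaves out the 4 AKBA peaks to its left, so its coverage and numbers of peaks depend partly on how it was cut, and they are given as a description.

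The widest AKBA peak, from 86525671 to 86545314, had a score of 7.50, and 1.72% of AKBA peaks scored as high. The score comes from the authors, its scale is not stated in the files, and it is read only as a rank within a list. The 5 DMSO peaks that it overlapped were 4555, 873, 1843, 5415 and 2982 bp wide, with scores of 3.88, 3.68, 4.25, 4.65 and 3.96. All were thus above the median DMSO score of 3.02. They lie under the peak that chose the window, and no DMSO peaks of like width were compared, so this is a description only. The 5 DMSO peaks filled 73.4% of the AKBA peak. The AKBA peak began 764 bp to the left of the first DMSO peak and ended 1242 bp to the left of the end of the last one.

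The breaks between these DMSO peaks measured 844, 1694, 772 and 1144 bp, 4454 bp in all. No gap in the whole AKBA list was shorter than 857 bp, against 641 bp in the DMSO list, so breaks of 844 and 772 bp could not appear in the AKBA list. Joining the DMSO peaks across gaps below 857 bp left 3 stretches under the AKBA peak, the widest of 8030 bp. The breaks of 1694 and 1144 bp were longer than the smallest AKBA gap, and the AKBA list had no break there.

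A break also occurred in the other direction. The DMSO peak from 86543575 to 86546556 ran without interruption across 911 bp, from 86545315 to 86546225, that separated the widest AKBA peak from the next one. That next AKBA peak, from 86546226 to 86547038, was 813 bp wide with a score of 3.47, and 331 bp of it were in the DMSO peak. Among the 9 DMSO peaks of the window it was this one that met 2 AKBA peaks. The widest AKBA peak, which chose the window, is among the 2. The share of such peaks over the whole DMSO list was not computed, so this is a description only. A stretch of 2006 bp to the right of the AKBA peak of 813 bp, from 86547039 to 86549044, was empty in both lists.

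The other shared peaks at 16q24 had similar edges in both lists. The last peak of the left block was called from 86549045 to 86551102 with DMSO and from 86549267 to 86551256 with AKBA. Its edges were 222 and 154 bp apart and its widths 2058 and 1990 bp, so here the DMSO peak was the wider. The lone peak to the right was called from 86598917 to 86602254 with DMSO and from 86598856 to 86602609 with AKBA. Its widths were 3338 and 3754 bp, and its edges differed by 61 and 355 bp. This peak, on the side of FOXC2, scored 4.63 in the DMSO list, where 9.36% of peaks scored as high, and 6.28 in the AKBA list, where 4.08% did.

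Peaks of a single list lay at the margins of the 16q24 window. To the left of the core the AKBA list held 4 peaks without a DMSO counterpart, of 338, 317, 1129 and 639 bp, starting at 86511591, 86515762, 86518877 and 86522283. Their scores were 3.36, 2.24, 2.58 and 2.62, of which 3 were under the AKBA median of 2.99. The DMSO list held 2 peaks without an AKBA counterpart. The first, from 86506260 to 86506477, was 218 bp wide with a score of 2.37 and lay 5113 bp from the nearest AKBA peak. The other, from 86612488 to 86613134, is the last peak of the window, on the side of FOXL1, with a width of 647 bp and a score of 2.88, and it lay 9878 bp from the nearest AKBA peak.

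At 6p25 the mark was sparser and lay mostly in a short stretch. In 350 kb, 6.57 kb (1.88%) lay in DMSO peaks and 12.0 kb (3.41%) in AKBA peaks. The ratio of 1.82 is close to the median of 1.83 over the 2754 consecutive windows of 350 kb with peaks of both lists, of which 50.4% had a ratio as high. More AKBA than DMSO bases were found in 82.1% of the 3969 windows of that length with any peak. Of these windows 6.32% held as many DMSO bases or more and 6.15% as many AKBA bases or more.

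The ratio at 6p25 depended on low-scoring AKBA peaks. With the 8890 highest-scoring peaks of each list it fell to 1.14, because 3 of the 5 AKBA peaks of the window dropped out. At 16q24 the same setting gave 1.21.

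**Figure D2:**
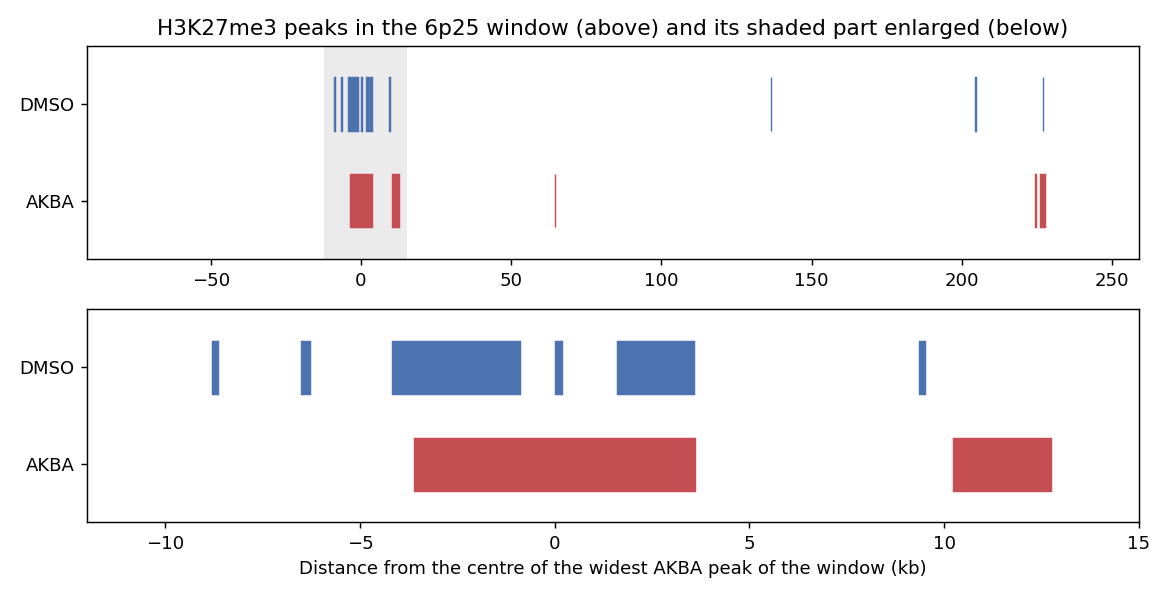
Peaks of the DMSO list (blue) and the AKBA list (red) in the 350 kb window at 6p25, as distance in kb from the centre of the widest AKBA peak there, with the shaded part enlarged below. The widest AKBA peak, of 7215 bp, faces 3 DMSO peaks, and most of the window has no peak in either list.

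The main marked stretch at 6p25, on the side of FOXF2, also had an AKBA peak across several DMSO peaks. At 16q24 such a peak chose the window, so the likeness is a description only. An AKBA peak from 1377473 to 1384687, of 7215 bp with a score of 5.77, overlapped 3 DMSO peaks of 3281, 198 and 1974 bp. Of the AKBA list 0.57% of peaks were as wide. The DMSO peaks scored 6.60, 2.53 and 3.70, the first of them reached by 0.922% of DMSO peaks, and they filled 67.8% of the AKBA peak. The 2 breaks between them, of 885 and 1399 bp, were both longer than the smallest AKBA gap of 857 bp, so joining the DMSO peaks below that distance closed neither. On the left the DMSO peak began 560 bp before the AKBA peak, and on the right the edges were 38 bp apart.

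AKBA peaks that overlap 2 or more DMSO peaks made up 4.43% of the AKBA list. They were 2 of the 13 AKBA members, 1 in each window. The 4.43% is over peaks of all widths, with a median of 742 bp. A wide peak has more room to overlap several, so this share is not matched to the peak of 7215 bp at 6p25. The peak at 16q24 is the one that the choice of the window used, and nothing is read from its count.

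Beyond this stretch few peaks at 6p25 met a peak of the other list. To its left the DMSO list held peaks of 160 and 218 bp at 1372278 and 1374573, with scores of 5.02 and 2.40 2682 bp or more from the nearest AKBA peak. To its right, a DMSO peak of 160 bp at 1390433 with a score of 2.56 and an AKBA peak of 2533 bp from 1391298 to 1393830 faced each other across 705 bp. That AKBA peak was among the widest 9.75% of its list, while 81.0% of AKBA peaks scored as high as its 2.40 or higher. It was therefore wide and low, whereas the other members of at least 2 kb scored above the medians of their lists. It was also the 1 member of at least 2 kb without an overlap in the other list.

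Lone narrow peaks filled the middle of the 6p25 window. The AKBA list had 1, of 253 bp at 1445532 with a score of 2.22. The DMSO list had 2, of 263 bp at 1517414 with a score of 2.13 and of 160 bp at 1585590 with a score of 3.30. The nearest peak of the other list was 54.9, 71.6 and 19.7 kb away. None of the 3 positions was therefore marked in both lists.

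Near the right end, on the side of FOXC1, the lists met again. The AKBA list had peaks of 256 bp at 1605422 and of 1695 bp from 1607030 to 1608724, with scores of 3.33 and 2.59. The DMSO list had a peak of 160 bp, from 1607999 to 1608158, with a score of 3.62, which lay wholly inside the wider AKBA peak and made up 9.44% of it. From 1290000 to 1372277, 82.3 kb at the left of the window, neither list had a peak. FOXQ1 comes before FOXF2 and FOXC1 in the order of the table.

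The nearest peaks outside the window lay farther away at 6p25 than at 16q24. The 350 kb on each side of the 6p25 window held no peak of either list. The nearest DMSO peaks lay 558 kb before and 1409 kb after the window, with widths of 192 and 171 bp, and the nearest AKBA peaks 521 kb before and 848 kb after it, with widths of 857 and 1031 bp. At 16q24 the nearest peaks outside the window were 6.83 kb (DMSO, 218 bp wide) and 9.35 kb (AKBA, 236 bp) before it. After it they were 121 kb (DMSO, 160 bp) and 88.7 kb (AKBA, 1069 bp) away. The 140 kb before the 16q24 window held 7 DMSO and 14 AKBA peaks, covering 4.48 and 9.83 kb, and the 140 kb after it 2 and 4 peaks, covering 0.615 and 8.43 kb. The window was drawn around its peaks and chosen for 1 of them, so its higher coverage than at its sides follows from the choice.

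**Figure D3:**
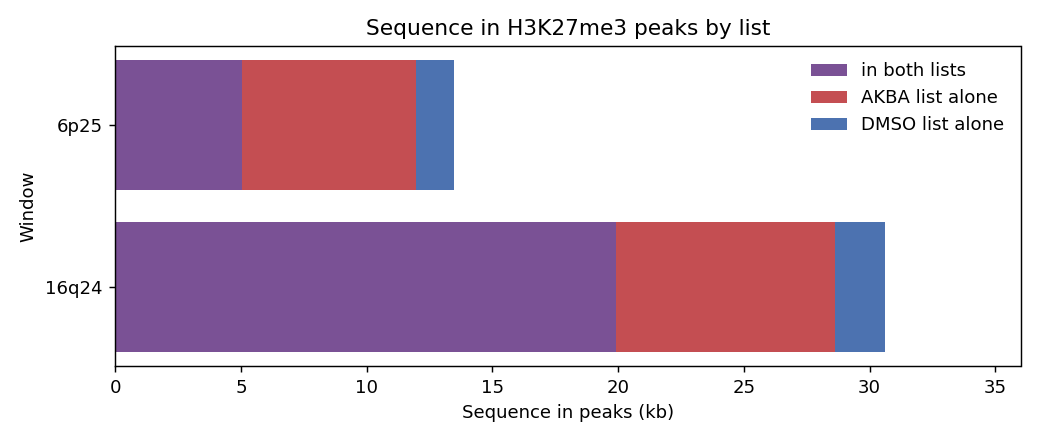
Sequence in H3K27me3 peaks of each window in kb, split into bases in both lists (purple), in the AKBA list alone (red) and in the DMSO list alone (blue). At 16q24 most of the marked sequence, 19.9 kb, was in both lists, and at 6p25 the AKBA list alone held the largest portion, 6.90 kb.

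Base by base, most of the DMSO mark was also in AKBA peaks at both clusters. At 16q24, 19.9 kb was in both lists, which is 90.9% of what DMSO peaks covered and 69.6% of what AKBA peaks covered. At 6p25, 5.05 kb was in both, or 76.9% and 42.3%. At 16q24, 14426 bp of the shared sequence lay under the widest AKBA peak, which chose the window. No such share was computed over the whole lists, so these shares are descriptions only. Bases of the AKBA list alone came to 8.69 kb in 13 pieces at 16q24 and to 6.90 kb in 8 pieces at 6p25. Bases of the DMSO list alone came to 1998 bp in 4 pieces and 1521 bp in 6 pieces. The longest pieces of the AKBA list alone were the break of 1694 bp at 16q24 and the peak of 2533 bp at 6p25.

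By number of peaks, 7 of 9 DMSO peaks at 16q24 and 4 of 9 at 6p25 overlapped an AKBA peak, against 54.5% of the whole DMSO list. The widest AKBA peak, which chose the 16q24 window, overlaps 5 of the 7 there, so that share is a description only. Of the AKBA peaks, 4 of 8 at 16q24 and 2 of 5 at 6p25 overlapped a DMSO peak, against 32.2% of the whole list. The widest AKBA peak is itself among the 4 at 16q24. Both windows held fewer AKBA than DMSO peaks, 8 against 9 and 5 against 9, although the AKBA list is the longer. This order depended on the settings. A width of at least 1 kb gave 2 DMSO and 3 AKBA peaks at 6p25, and leaving out the narrowest peaks gave 5 of each. At 16q24, joining DMSO peaks below the smallest AKBA gap gave 7 DMSO and 8 AKBA peaks. Extending that window by 50 kb gave 14 and 16. Under the other settings the AKBA number stayed the lower. Fewer AKBA than DMSO peaks were found in 21.1% of the windows of 140 kb and in 20.4% of those of 350 kb. In both windows the widest AKBA peak stood where the DMSO list had several peaks. At 6p25, 5 of the 9 DMSO peaks overlapped no AKBA peak. What accounts for the lower AKBA numbers was not tested.

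Widths in the 2 clusters differed. Peaks of at least 2 kb numbered 5 of 9 in the DMSO list and 2 of 8 in the AKBA list at 16q24, and 1 of 9 and 2 of 5 at 6p25. In the whole lists 9.43% of DMSO and 14.0% of AKBA peaks were as wide. The median width was 2058 bp (DMSO) and 971 bp (AKBA) at 16q24, and 198 and 1695 bp at 6p25, against 552.5 and 742 bp in the whole lists. The widest AKBA peak, which chose the 16q24 window, is among the AKBA peaks of at least 2 kb there. It overlaps the DMSO peaks of 4555, 5415 and 2982 bp, so the widths at 16q24 are descriptions only. The narrowest width a DMSO peak has is 160 bp, shared by 8.58% of the list, and 4 of the 9 DMSO peaks at 6p25 had it, against none at 16q24. None of the 13 AKBA members was at 214 bp, the narrowest AKBA width, which 7.69% of that list has.

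**Figure D4:**
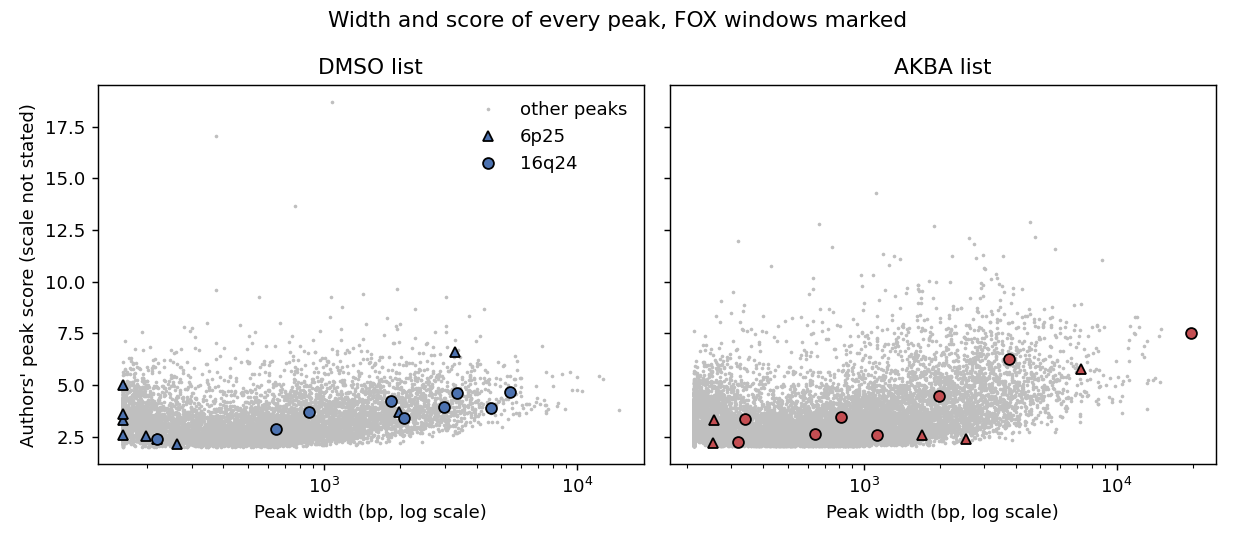
Width (bp, log scale) and the authors' score of every peak of the DMSO list (left) and the AKBA list (right), with the peaks at 6p25 (triangles) and 16q24 (circles) marked. The DMSO peaks at 6p25 gather at the narrow end, where 4 measure 160 bp, while the AKBA peak of 19644 bp lies at the far right of its list.

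With peaks of both lists joined where gaps were at most 5 kb, the windows held 10 of 11947 joined domains, 6 at 6p25 and 4 at 16q24. Peaks of both lists were present in 5 of these 10, against 35.7% of all domains. The left block at 16q24 became a domain from 86511591 to 86551256, of 39.7 kb, the sixth longest of the genome. The widest AKBA peak, which chose the window, lies in it. The domain's length, its AKBA coverage and its place among the 5 are therefore descriptions only. That peak overlaps 5 of the 6 DMSO peaks of the domain, so its DMSO coverage is not independent of the choice either. DMSO peaks covered 44.7% and AKBA peaks 62.7% of the domain, against medians of 25.1% and 47.3% over the 441 domains of at least 10 kb with peaks of both lists. The longest domain at 6p25, from 1372278 to 1384687, measured 12.4 kb, with 2.43% of domains as long. Its coverage was 47.0% by DMSO peaks and 58.1% by AKBA peaks.

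**Figure D5:**
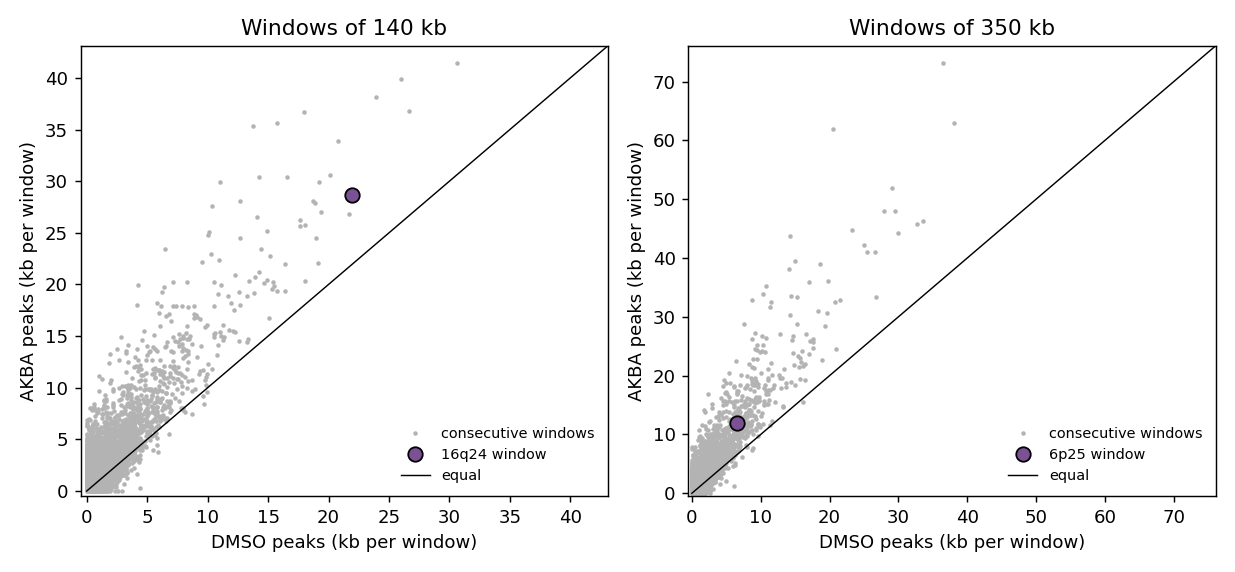
Sequence in DMSO peaks (x axis) and AKBA peaks (y axis), in kb per window, for consecutive windows of 140 kb (left) and 350 kb (right) with a peak (grey points) and for the FOX windows (large points), with the line of equal values. The 16q24 window, at 21.9 and 28.6 kb, lies far out along both axes and near the line, and the 6p25 window, at 6.57 and 12.0 kb, lies in the middle of the spread of ratios.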

How the data were processed

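Chromatin from HaCaT cells was immunoprecipitated for H3K27me3 and sequenced, per the labels' protocols. The submitters' processing notes name BWA, STAR and MACS2, without versions, and build hg19. The peak threshold, the use of the input DNA and the treatment of duplicates were not given in the sources used here. Each deposited list has a position and 1 score per peak, and the scale of the score that the authors deposited is not stated. Positions are 1-based hg19.

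Peaks, widths and overlaps (at least 1 bp) were computed with Python 3.11.15, numpy 2.4.6 and pandas 2.3.3, and the overlap code was checked on simulated data. The members and lists were chosen with earlier results of these data known. The text names the 6 genes, the genes directly beside them in the gene table and some between them, and gives every peak of the windows. Windows of the same length were laid end to end along each chromosome, and peaks were counted there by their centre. The 4 samples form 4 groups of 1, and the input libraries gave no values. Other forkhead genes, and keratinocyte markers, planned only with an hg19 annotation, were not analysed here.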

Additional observations from a re-analysis of the deposited data

How the results depend on the processing

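Every alternative kept more AKBA than DMSO bases in both windows. At 16q24 the widest AKBA peak, which chose the window, makes up 68.6% of the AKBA bases as deposited. The direction there is therefore not independent of the choice. Of 86 alternative values 63 stayed close to the value given (within 1.5 times, or, for shares, inside its exact 95% binomial interval), none reversed and 23 moved. Each value was labelled by itself, so a change in which list had more peaks in a window did not count as a reversal. With a score of at least 3, 5 DMSO and 2 AKBA peaks were left at 6p25 and 5 AKBA peaks at 16q24, where 100% of DMSO peaks were then shared. The 8890 highest-scoring peaks left 2 and 5 AKBA peaks and a base ratio of 1.14 at 6p25. A width of at least 1 kb left 2 DMSO and 3 AKBA peaks at 6p25 and 4 AKBA peaks at 16q24, with 100% of DMSO peaks shared in both windows. Windows extended by 50 kb held 14 DMSO and 16 AKBA peaks at 16q24. At a reciprocal overlap of 50%, 0% of either list was shared at 6p25 and 22.2% of DMSO peaks at 16q24. Without the narrowest peaks, a choice made after seeing the data, 5 DMSO peaks were left at 6p25. Joining within 2 kb gave longest domains of 7.78 kb (6p25) and 21.4 kb (16q24) and 9 domains at 16q24. Joining within 10 kb gave 21.6 kb at 6p25 and 2 domains at 16q24. Fewer peaks follow from stricter limits by construction. No paired analysis was possible because each condition has 1 library. Unknown depth, the unstated score and the different smallest gaps limit every comparison.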
